A study of Cricetulus griseus with 6 samples.

Results

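The genes described here carry a symbol that begins with Znf or Zfp and a number, most of which encode zinc finger proteins. They were measured in CHO-K1, a Chinese hamster ovary cell line used in protein production, grown for 3 days with or without the polyamine putrescine. Members were chosen by name and selected on level: 176 probe sets with 1 gene symbol matched the name pattern, which gave 151 genes. Each gene was represented by its brightest probe set, judged by the mean of all 6 arrays, and 123 genes whose mean reached a log2 value of 5 were kept, of 14899 genes with a single symbol. The mean level over all arrays chose the members, and the difference between media did not enter the rule. The set was nevertheless proposed with the differences known and with Znf483 as its marker. Znf483 is therefore described without a test, and the counts below, which include its call, are descriptions of these arrays.

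Suspension flasks of CHO-K1 were seeded at 200000 cells/ml in 50 ml of SFM-F10 medium. In 3 flasks the medium was given 1 mg/l putrescine, and in 3 it was not. RNA of day 3 from 4000000 cells was hybridised to 1 Affymetrix whole-transcript array per flask. The labels call the flasks biological replicates. No other treatment or genetic change is given for either group, and all 6 cultures are of 1 cell line.

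Most zinc finger genes of this name encode C2H2 proteins, in which repeated fingers, each folded around a zinc ion, read short stretches of DNA. Many carry a KRAB box, which binds the scaffold protein TRIM28 and through it recruits histone methyltransferases, HP1 proteins and deacetylases that silence chromatin, classically at transposable elements. A smaller group carries a SCAN domain, a dimerisation module. The name does not ensure such a role: Zfp36 and Zfp36l1 are CCCH proteins that bind messenger RNA, Znf598 is a ubiquitin ligase of stalled ribosomes, and Znf622 and Znf593 act in ribosome assembly. The domains and roles named below are those of the human or mouse proteins.

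The arrays were close to each other, with Pearson r across probe sets of 0.9957 to 0.9962 within and 0.9856 to 0.9878 between groups. Of 5 genes listed beforehand as expressed in the line, 3 reached a group mean of 5. These were Vim, Lgals1 and Actb, at 11.55 or above on the log2 scale in both group means. The keratin genes Krt8 and Krt18, also on that list, were at 3.56 or below, so the check did not hold for them. Lgals1 itself rose by 0.89 without putrescine, and its part in the results below was not tested. Of 15 markers listed for other cell types, 7 were measured. These were Ptprc (blood), Alb and Apoa1 (liver), Gfap and Syp (nerve), Pecam1 (endothelium) and Fshr (ovarian granulosa). The listed muscle and pancreas markers were not measured, and Fshr was the only granulosa marker that was. Group means of the measured markers ran from 2.82 to 4.50 with putrescine and from 2.85 to 4.72 without, none reaching 5.

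Without putrescine, 27 of the 123 zinc finger genes were higher and 19 lower in limma at an adjusted p under 0.05, and 77 did not pass. In bulk RNA such as this, a change in the share of cells that express a gene and a change in its RNA per cell cannot be told apart. The called share of 37.4% compares with 47.1% of all 8908 genes with a mean of at least 5 and with 24.4% of all 29700 probe sets. By direction, 22.0% of the zinc finger genes were higher, beside 24.8% of those genes and 13.2% of all probe sets. The share lower was 15.4%, beside 22.4% and 11.2%. Leaving out the marker Znf483 gave 26 of 122 members higher and a called share of 36.9%. The groups did not overlap for 72 members (58.5%), beside 65.2% of all genes at that level and 37.5% of all probe sets. The median log2 difference, without minus with putrescine, was 0.02 for the members, 0.02 for all genes at that level and 0.01 for all probe sets. The count of higher members dropped to 16 when with-putrescine replicate 3 was omitted, and to 16 when no-putrescine replicate 1 was.

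Differences among the members were mostly small. The interquartile range lay between -0.23 and 0.28 on the log2 scale, where that of all genes at this level lay between -0.27 and 0.31. Of the 46 called members 11 differed by at least 1.5-fold, and 2 of these, Znf483 and Znf746, by at least 2-fold. The median within-group SD of a member was 0.12, against 0.10 for all genes at this level.

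**Figure D1:**
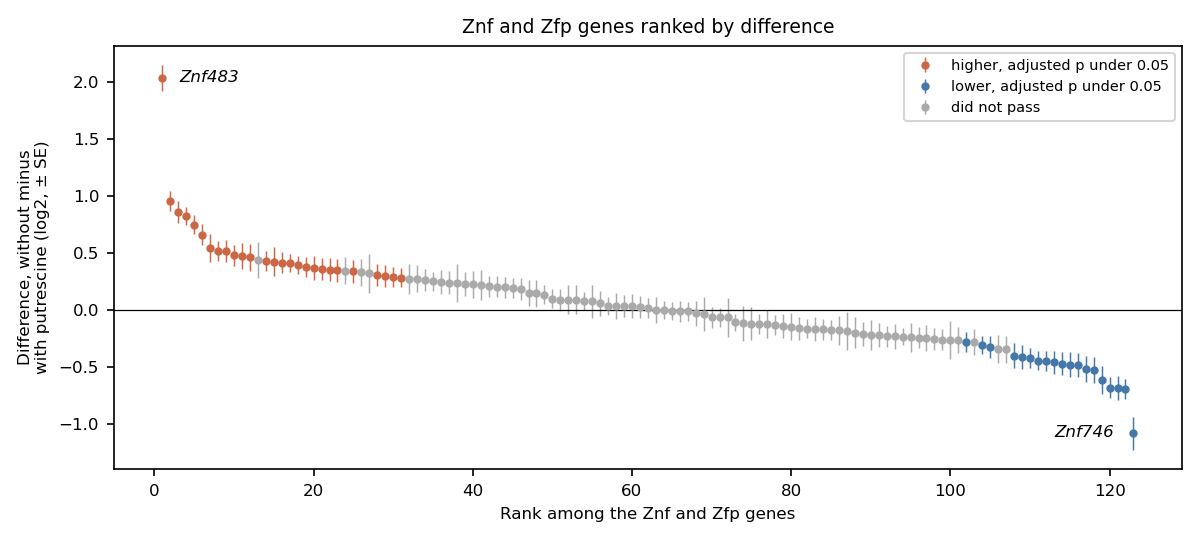
Log2 difference (without minus with putrescine) of each of the 123 Znf and Zfp genes, ranked from the largest rise to the largest fall, with error bars of 1 SE of the limma fit. Points are coloured by the test at an adjusted p of 0.05. Znf483 (2.04) and Znf746 (-1.08) stood apart from the other members, which lay between -0.69 and 0.96.

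Among KRAB proteins, the marker Znf483, which joins a SCAN domain and a KRAB box in human, had the largest difference of all members. Its probe set 17988727 read 5.99, 5.74 and 5.62 with putrescine and 7.85, 7.71 and 7.90 without. Every culture without putrescine was above every culture with it, by at least the gap from 5.99 to 7.71. The mean difference was 2.04 (SE 0.11), or 4.10-fold, at 7.82 ± 0.10 against 5.78 ± 0.19 (SD, n = 3). Znf483 had 1 probe set, so no second reading of the gene was at hand.

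Znf667, a KRAB repressor described in rat as induced by ischaemic preconditioning of the heart, rose 1.95-fold. Its log2 values were 7.06, 6.88 and 7.05 with putrescine and 7.91, 7.95 and 8.01 without. The groups did not overlap, and the difference was 0.96 (SE 0.09; limma adjusted p = 0.000146). The opposite change was seen in Znf746, known as PARIS, a KRAB repressor of the PGC-1α gene and a substrate of the ubiquitin ligase parkin. Znf746 read 7.21, 7.16 and 7.22 with putrescine and 6.46, 6.05 and 5.85 without. The cultures without putrescine were all lower and spread more widely, with an SD of 0.31 against 0.03. Znf746 fell by 1.08 on the log2 scale (SE 0.145; limma adjusted p = 0.000884), which is 2.11-fold lower.

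In all, 38 members were classed as having a KRAB box in the human protein, with a median log2 difference of 0.06. Of these 12 rose, the marker Znf483 among them, 4 fell and 22 did not pass. Of the other 85 members 15 rose, 15 fell and 55 did not pass, with a median of -0.01. The shares higher, 31.6% and 17.6%, stand beside 24.8% of all genes at this level. The shares lower were 10.5% and 17.6%, beside 22.4%, and the called shares 42.1% and 35.3%, beside 47.1%. The difference between the classes was not tested. Besides Znf483 and Znf667, the KRAB genes that rose were Znf248 (0.55), Znf334 (0.48), Znf558 (0.43), Znf689 (0.42), Znf566 (0.39), Znf354c (0.38), Znf317 (0.36), Znf569 (0.31), Znf599 (0.29) and Znf25 (0.29). Besides Znf746, those that fell were Znf169 (-0.48), Znf14 (-0.42) and Znf777 (-0.30).

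Several of these smaller KRAB calls lay near the threshold and were lost in fits of 5 arrays, while the differences kept their sign. The call of Znf599 was lost whichever 1 of the 6 arrays was left out (limma adjusted p up to 0.114), with differences of 0.25 to 0.33, and under trended robust moderation (0.0687). That of Znf25 was lost without any array except no-putrescine replicate 2 (up to 0.132), with differences of 0.25 to 0.34, and after quantile normalization (0.0766). Znf317 lost its call without any except with-putrescine replicate 2 (up to 0.0869), with differences of 0.28 to 0.41. Znf569 and Znf777 lost theirs without any array except no-putrescine replicate 1 (up to 0.141 and 0.0742), with differences of 0.27 to 0.38 and of -0.33 to -0.27, and Znf569 also after quantile normalization (0.0695). Znf558 lost it when replicate 1 or 3 of the with-putrescine group, or 1 or 2 of the other group, was omitted (up to 0.117), with differences of 0.32 to 0.495. Znf354c lost it without with-putrescine replicate 3 (0.0552) and no-putrescine replicate 1 (0.052), and Znf334 without with-putrescine replicate 2 (0.0597) and no-putrescine replicate 1 (0.0526). Their differences over these fits were 0.32 to 0.42 and 0.38 to 0.55. The calls of Znf248, Znf689, Znf566, Znf169 and Znf14 held in all 6 of these fits. In the fit without moderation those of Znf248 (0.0829) and Znf169 (0.0672) were lost.

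A SCAN domain in human was assigned to 8 members. The 7 other than Znf483 did not pass, where 47.1% of all genes at this level and 24.4% of all probe sets did. Znf24, a SCAN protein needed for myelination in mouse, read 5.92, 6.27 and 6.0 with putrescine and 6.34, 6.33 and 6.56 without. Its groups did not overlap, but the difference of 0.35 did not pass (adjusted p = 0.063), and it passed without with-putrescine replicate 2 (0.027) and with the filter on dim probe sets (0.0257). Znf445, which maintains genomic imprints with ZFP57, had a difference of 0.14, and Znf263 had -0.34 (adjusted p = 0.0761). The remaining SCAN members Znf18, Znf213, Znf449 and Znf496 lay between -0.26 and 0.25.

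**Figure D2:**
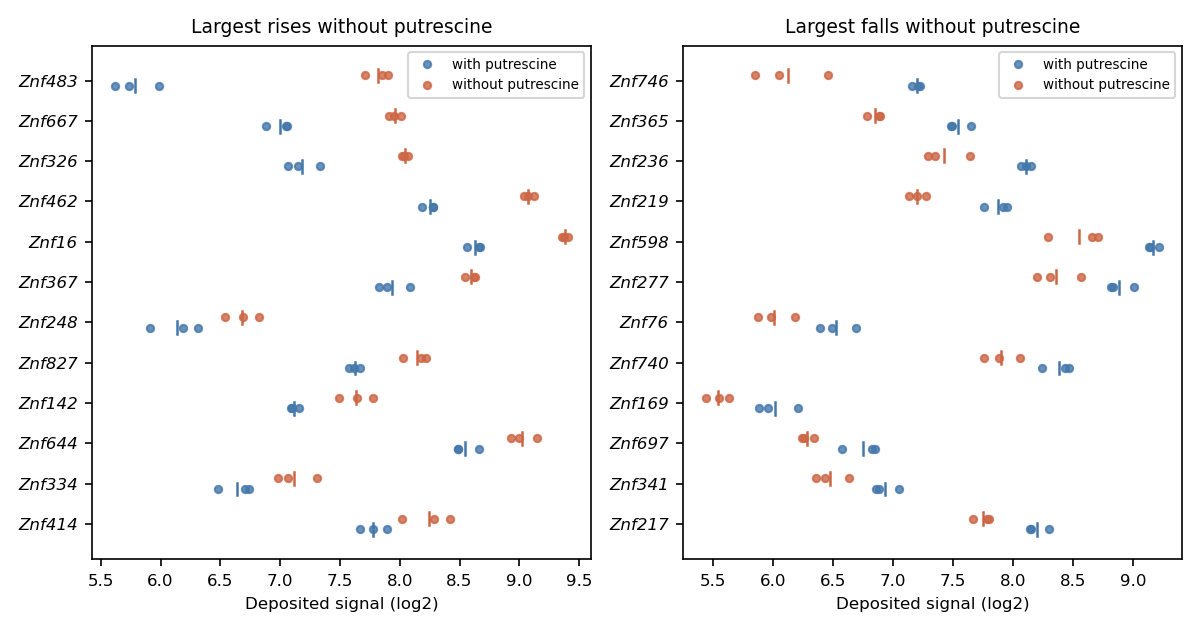
Deposited log2 signal of the 12 Znf and Zfp genes with the largest rise (left) and the 12 with the largest fall (right) among those past the threshold, for 3 cultures with and 3 without putrescine. Points are arrays and vertical ticks are group means. Only genes whose groups did not overlap were eligible, so in each row all points of one group lie on one side of the other group.

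A list drawn up as sequence-specific activators and developmental regulators held 14 members, of which 2 rose, 2 fell and 10 did not pass. The called share of 28.6% was below the 47.1% of all genes at this level and near the 24.4% of all probe sets. Znf462, a large C2H2 protein whose loss of function disturbs human craniofacial and brain development, rose 1.77-fold. It read 8.28, 8.28 and 8.19 with putrescine and 9.12, 9.04 and 9.07 without. The groups stood clear of each other, with a difference of 0.83 (SE 0.08; limma adjusted p = 0.000186). Znf367 rose 1.58-fold, from 7.89, 8.09 and 7.83 to 8.55, 8.63 and 8.62 (difference 0.66, SE 0.09; limma adjusted p = 0.00117).

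The members of this list that fell were Znf365 and Znf76. Znf365 was placed on the list although its product is linked to the centrosome and to genome stability. It read 7.49, 7.65 and 7.48 with putrescine and 6.89, 6.78 and 6.88 without. All 3 cultures without putrescine were lower, and the difference was -0.69 (SE 0.09; limma adjusted p = 0.000668), or 1.61-fold lower. Znf76, a close relative of the promoter-binding activator Znf143, fell by 0.51 on the log2 scale (limma adjusted p = 0.0112). Znf76 read 6.49, 6.39 and 6.69 with putrescine and 6.18, 5.87 and 5.98 without. Its call was lost in the fit without moderation (0.0722). Znf143 itself read 8.39, 8.62 and 8.56 with putrescine and 8.46, 8.50 and 8.58 without, so that its groups overlapped (difference -0.01, SE 0.09).

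The other members of this list did not pass. Znf335, needed by neural progenitors, had -0.26 (adjusted p = 0.0732), but it passed after quantile normalization (0.0495), under trended robust moderation (0.0491) and when dim probe sets were filtered out (0.0257). Znf423, a cofactor of EBF and SMAD proteins that marks preadipocytes, had 0.25 (adjusted p = 0.0595). Znf423 passed without no-putrescine replicate 3 (0.0465) and with the filter on dim probe sets (0.0186). Znf281 had 0.21, and Znf410, a dedicated activator of the Chd4 gene, had 0.08. Znf703, which this list shares with the next, had 0.09, and Znf24, also on this list, is described above. Znf148, a binder of GC-rich promoters, had 0.03, Znf292 0.02 and Znf395 -0.12, with overlapping groups in all 3.

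Among 11 members known from chromatin repressor or cofactor complexes, 3 rose, 2 fell and 6 did not pass, a called share of 45.5% that was near the 47.1% of all genes at this level. Znf827, which recruits the NuRD remodelling complex to telomeres in human cells without telomerase, read 7.67, 7.62 and 7.58 with putrescine and 8.18, 8.22 and 8.03 without. All cultures without putrescine were higher, by 0.52 on average (SE 0.09; limma adjusted p = 0.00268). Znf644, a partner of the H3K9 methyltransferases G9a and GLP, rose by 0.48 on the log2 scale (SE 0.10; limma adjusted p = 0.00642), from 8.49, 8.66 and 8.49 to 9.15, 8.93 and 9.0.

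Znf518a, also on the chromatin list, rose by 0.37 (limma adjusted p = 0.0323). Omitting with-putrescine replicate 1 (0.0786) or 3 (0.108), or no-putrescine replicate 1 (0.0948) or 3 (0.103), ended the call.

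Znf219, a partner of SOX9 in mouse cartilage, and Znf217, an oncogene product bound to the CoREST and CtBP co-repressors, were the members of the chromatin list that fell. Znf219 read 7.95, 7.92 and 7.76 with putrescine and 7.20, 7.27 and 7.13 without, a fall of 1.60-fold (difference -0.68, SE 0.09; limma adjusted p = 0.00084). Znf217 read 8.30, 8.14 and 8.15 with putrescine and 7.67, 7.80 and 7.78 without. Its groups were apart, and the difference was -0.45 (SE 0.09; limma adjusted p = 0.00599). Znf592 (-0.23) and Znf687 (0.19), which act together in a complex with ZMYND8, did not pass and had opposite signs. Znf592 passed with the filter on dim probe sets (0.0486). Znf516 (-0.16), Znf609 (-0.20), Znf445 and Znf703 did not pass either.

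Of 12 members that act on RNA, ribosomes or translation, 2 rose, 1 fell and 9 did not pass, a called share of 25% beside 47.1% of all genes at this level and 24.4% of all probe sets. Znf326, a subunit of the DBIRD complex that couples transcript elongation to splicing, rose 1.81-fold. It read 7.15, 7.33 and 7.07 with putrescine and 8.02, 8.04 and 8.07 without. The 3 cultures without putrescine lay within a narrow band above the others, with a difference of 0.86 (SE 0.09; limma adjusted p = 0.000301). Znf598, the ubiquitin ligase that marks collided ribosomes, read 9.13, 9.14 and 9.22 with putrescine and 8.71, 8.66 and 8.29 without. All cultures without putrescine were lower, and the difference was -0.61 (SE 0.12; limma adjusted p = 0.00585), or 1.53-fold lower. The call of Znf598 was lost in the fit without moderation (0.0569).

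Znf622, a factor of large ribosomal subunit assembly, rose by 0.35 (limma adjusted p = 0.0372). Quantile normalization took its adjusted p to 0.0552. Omitting with-putrescine replicate 1 or 3 (0.098 and 0.116), or no-putrescine replicate 2 or 3 (0.077 and 0.109), also ended the call. Znf593, another factor of that subunit, had -0.24 and did not pass (adjusted p = 0.107), though it passed with the filter on dim probe sets (0.0421). Zfp36, tristetraprolin, which promotes decay of AU-rich messenger RNA, read 7.10, 6.88 and 6.88 with putrescine and 6.99, 7.05 and 6.93 without. Its groups overlapped, with a difference of 0.04 (SE 0.09). The related Zfp36l1 had -0.12 in its representative probe set and also did not pass. Znf638, a nuclear RNA-binding protein, had 0.28, Znf385a 0.23, Znf473, of the histone pre-mRNA processing machinery, 0.22, and Znf830, a splicing-associated protein, 0.21. Znf706 had 0.04 and Znf106 -0.11, which passed only in the fit without moderation (0.0329) of the alternatives run.

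Of the members outside these lists and the KRAB and SCAN groups, Znf16 showed the largest rise and Znf236 the largest fall. Znf16 read 8.67, 8.56 and 8.66 with putrescine and 9.36, 9.41 and 9.37 without, a rise of 1.68-fold (difference 0.75, SE 0.08; limma adjusted p = 0.000289). Znf236 read 8.15, 8.11 and 8.07 with putrescine and 7.64, 7.29 and 7.35 without, 1.61-fold lower (difference -0.68, SE 0.11; limma adjusted p = 0.0019). In both genes the groups did not overlap.

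The next rises were in Znf142 (0.52) and Znf414 (0.46). The call of Znf414 ended when with-putrescine replicate 1 (0.0555) or 2 (0.0745), or no-putrescine replicate 1 (0.0701) or 2 (0.0665), was omitted. Smaller rises were in Znf654 (0.43), Znf407 (0.41), Znf770 (0.36), Znf672 (0.34) and Znf280c (0.30). The calls of Znf770 and Znf672 were lost without any array except with-putrescine replicate 1 (limma adjusted p up to 0.108 and 0.115), and that of Znf280c without any except with-putrescine replicate 2 (up to 0.15). Quantile normalization also ended the calls of Znf770 (0.0554) and Znf280c (0.0745).

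The next falls were in Znf277, a partner of the Polycomb protein BMI1 in mouse (-0.53, limma adjusted p = 0.00978), Znf740 (-0.48), Znf697 (-0.47) and Znf341, an activator of the STAT3 gene in human (-0.46). The fit without moderation lost the calls of Znf277 (0.0675), Znf740 (0.0643) and Znf341 (0.0562). Zfp64, an activator of the MLL gene promoter in human leukaemia cells, fell by 0.44 on the log2 scale (limma adjusted p = 0.00418). It read 9.91, 9.82 and 9.88 with putrescine and 9.49, 9.41 and 9.39 without, with no overlap. Smaller falls were in Znf652 (-0.41), Znf239 (-0.40), Znf513 (-0.32) and Znf408 (-0.28). The call of Znf408 was lost whichever array was left out (limma adjusted p up to 0.131), and that of Znf513 without any except no-putrescine replicate 1 (up to 0.13). Znf652 and Znf239 lost theirs when replicate 2 or 3 of either group was omitted (up to 0.0709 and 0.101).

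Further probe sets, which the choice of the highest mean had left unused, gave another reading of 19 members. Of 22 such probe sets 19 had the same sign of difference as the representative and 3 the other sign. They share the RNA of the same 6 cultures and are not replicates. For the 8 called members that had any, all 11 further probe sets had the same sign and 6 passed. Both further probe sets of Znf367 rose by more than the representative, by 1.17 (SE 0.17) and 0.94 (SE 0.10) on the log2 scale. One of them read 7.26, 7.22 and 6.92 with putrescine and 8.19, 8.06 and 8.67 without.

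The other further probe sets that passed for called members were a probe set of Znf219 (-0.54) and those of Znf598 (-0.49), Zfp64 (-0.55) and Znf827 (0.46). Those that did not pass were another of Znf219 (-0.24), both of Znf354c (0.19 and 0.26), and those of Znf169 (-0.12) and Znf239 (-0.24). The groups of the further Znf169 probe set overlapped. For 3 members the further probe set passed where the representative did not. These were Zfp36l1 (-0.52 against -0.12), Zfp41 (0.50 against 0.44) and Znf638 (0.46 against 0.28). The further probe set of Zfp41 was dim, at a mean of 4.19, below the minimum of 5 set for members. The further probe set of Zfp36l1 read 9.66, 9.56 and 9.60 with putrescine and 9.11, 9.22 and 8.92 without (limma adjusted p = 0.0048), whereas its representative read 10.34, 10.29 and 10.34 with putrescine and 10.10, 10.20 and 10.31 without. The probe sets of Zfp36l1 therefore disagreed on whether the groups overlap. The 3 probe sets of the other sign belonged to Znf180, Znf687 and Znf710, and neither probe set of these genes passed.

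**Figure D3:**
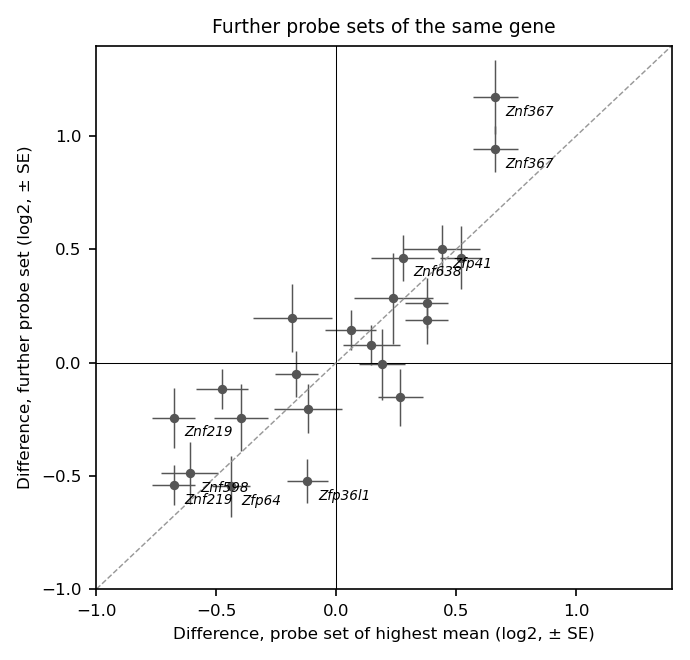
Log2 difference (without minus with putrescine) of each of the 22 further probe sets of 19 members (vertical axis) against that of the gene's representative probe set (horizontal axis), with error bars of 1 SE. The dashed line marks equal differences. The 2 points of Znf367 lie above the line, at 1.17 and 0.94 against 0.66, and Zfp36l1 lies well below it, at -0.52 against -0.12.

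Zinc finger genes of this kind often lie in clusters of related copies. In the gene order of the RefSeq annotation of CriGri-PICRH-1.0, 122 members were matched, and 15 of them formed 7 groups of neighbours with at most 1 other gene between consecutive members. In 2 of the groups all members had the same sign, and in 5 the signs were mixed. The neighbours Znf746 (-1.08) and Znf777 (-0.30) both fell, and the neighbours Znf25 (0.29) and Znf248 (0.55) both rose; the calls of Znf777 and Znf25 lay near the threshold, as given above. Znf239 fell by 0.40 on the log2 scale beside Znf32 (0.19), which did not pass. Znf689 rose by 0.42 beside Znf688 (-0.06) and Znf768 (-0.14), neither of which passed. Znf672 rose by 0.34 beside Znf692 (-0.17), which did not pass. The specificity of the probes among related finger sequences was not tested.

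The minimum level left 28 genes out, of which 2 were higher, 1 was lower and 25 did not pass, a called share of 10.7%. The share of all probe sets was 24.4%, but it includes bright ones. Among all genes with a mean of at least 5 it was 47.1%. A share of all genes below that level was not computed. The members just inside the minimum were Znf653 at a mean of 5.02, Znf324 at 5.10 and Znf213 at 5.26. Just outside were Znf786 at 4.85, Znf683 at 4.83 and Znf185 at 4.81. One member, Znf653, had a group mean below 5 (5.19 with and 4.85 without putrescine), and 1 gene left out, Znf185, had a group mean above it. Znf185, which encodes a LIM-domain protein of the actin cytoskeleton and no C2H2 factor, read 4.51, 4.2 and 4.07 with putrescine and 5.84, 5.15 and 5.11 without, a difference of 1.11 (SE 0.20). The other genes called below the minimum were Znf157 (0.32) and Znf385b (-0.65).

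A list drawn up as KRAB co-repressor genes held 45 symbols, some of them aliases of the same gene. Of its genes 32 were measured, and 11 rose, 4 fell and 17 did not pass. The called share was 46.9%, beside 47.1% of all genes with a mean of at least 5, and the median log2 difference was 0.18, beside 0.02. Trim28, the scaffold that KRAB boxes bind, rose 1.68-fold. It read 9.09, 8.78 and 9.0 with putrescine and 9.81, 9.68 and 9.63 without. Every culture without putrescine was above every culture with it (difference 0.75, SE 0.105; limma adjusted p = 0.00109).

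Uhrf1 and Hells, which act in the maintenance of DNA methylation, rose by 1.19 and 0.76 on the log2 scale (limma adjusted p = 0.000193 and 0.00136), and the TRIM28 relative Trim33 by 0.53. The maintenance methyltransferase gene Dnmt1 (0.39), the HP1 gene Cbx5 (0.38), the H3K9 methyltransferase gene Suv39h1 (0.46) and the deacetylase genes Hdac1 (0.35) and Hdac2 (0.34) also rose, as did Mta3 (0.32) and Smarcad1 (0.32). Daxx, a histone H3.3 chaperone that works with ATRX, read 9.52, 9.34 and 9.45 with putrescine and 8.24, 8.37 and 8.29 without. It fell by 1.14 on the log2 scale (SE 0.09; limma adjusted p = 7.41e-05), and its groups were far apart.

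The other genes of this list that fell were the G9a gene Ehmt2 (-0.48), Chd3 (-0.32) and Gatad2b (-0.32). Setdb1, the H3K9 methyltransferase that TRIM28 recruits, read 0.15 higher on average and did not pass, and Ehmt1, Tasor and Morc2 had differences of 0.03 or less. The list holds genes of the cell cycle and DNA replication, such as Uhrf1, Hells and Dnmt1, and their part in its median was not tested. Only 2 of its genes were called lower when with-putrescine replicate 1 or 3, or no-putrescine replicate 2 or 3, was left out.

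**Figure D4:**
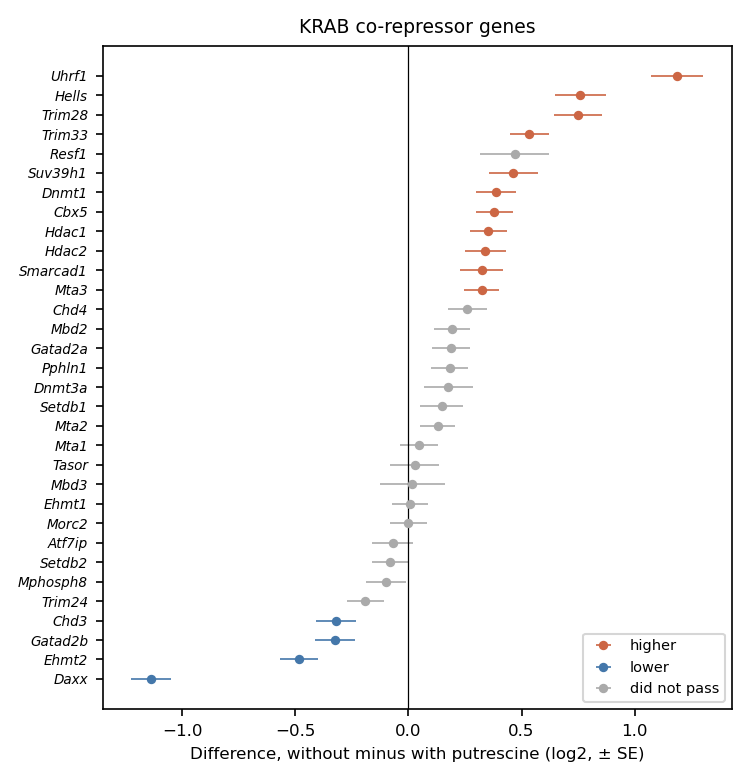
Log2 difference (without minus with putrescine) of the 32 measured co-repressor genes, ordered by difference, with error bars of 1 SE and colours for the test at an adjusted p of 0.05. Uhrf1 (1.19) and Daxx (-1.14) mark the ends, and Trim28 is at 0.75.

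C2H2 genes of other names, such as the Klf, Zbtb and Prdm families, gave a second set for comparison. Of 83 such genes with a mean of at least 5, 15 rose, 20 fell and 48 did not pass, a called share of 42.2% beside 47.1% of all genes at this level, with a median log2 difference of -0.13 where the Znf and Zfp genes had 0.02. The difference between the sets was not tested. The 5 genes with the smallest p all fell: Klf8 (-2.02), Zbtb25 (-0.79), Klf3 (-0.97), Klf11 (-0.98) and Klf9 (-0.89). Klf8 read 8.07, 7.98 and 8.12 with putrescine and 5.98, 5.99 and 6.13 without. Of the 10 Klf genes 6 fell and 0 rose in limma, and of the 30 Zbtb genes 7 rose and 6 fell. The Klf share lower was 60.0%, and the Zbtb shares of 23.3% higher and 20.0% lower were near the 24.8% and 22.4% of all genes at this level. With all arrays 15 genes of this set were called higher. The count was 5 without with-putrescine replicate 3, 7 without with-putrescine replicate 2, 7 without no-putrescine replicate 1 and 9 without no-putrescine replicate 2.

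**Figure D5:**
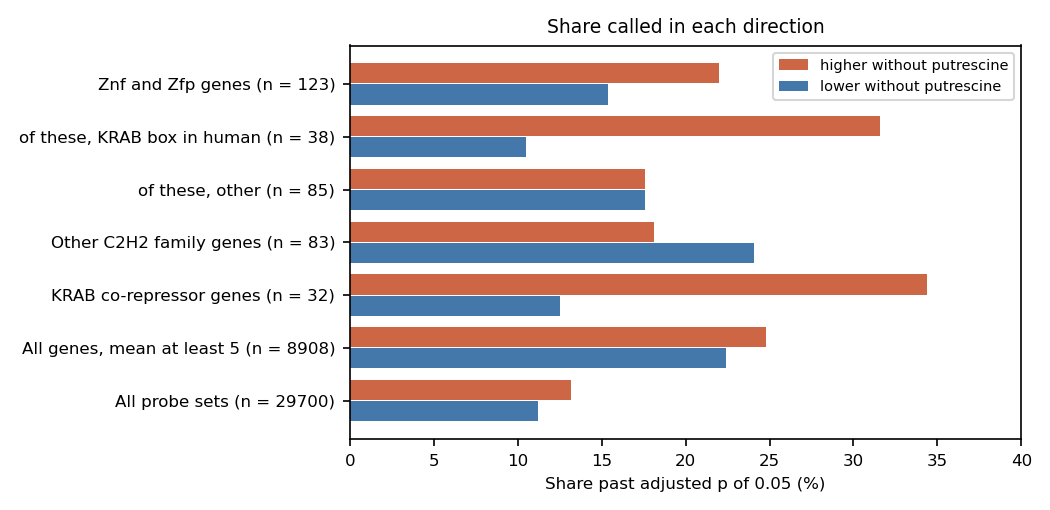
Share of genes past an adjusted p of 0.05 in limma, in percent, higher (orange) and lower (blue) without putrescine, for the Znf and Zfp genes, their KRAB and other members, other C2H2 genes, KRAB co-repressor genes, all genes with a mean of at least 5 and all probe sets. For the Znf and Zfp genes the shares were 22.0% and 15.4%, and for all genes at that level 24.8% and 22.4%.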

How the data were processed

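The authors' deposited table holds 1 log2 value per probe set and array for 6 arrays (29700 probe sets, 1 missing value, values from 1.55 to 13.66). Per the submitters' processing notes the tool was Transcriptome Analysis Console. The labels name no version, settings or genome build for it. No label states the base of the logarithm, which was taken as 2 from the range. Array medians of 4.92 to 4.98 show that the values were on one scale, so a difference is measured against the bulk of probe sets, and a change in total RNA would be missed. Array number limits precision: with 3 cultures per group, p-values set the mean difference against the spread between these cultures. In the moderated fit that spread was drawn partly from the other probe sets.

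Gene names came from the platform annotation, which gave 1 symbol for 16481 probe sets, several for 793 and none for 12426. Only single-symbol probe sets were named. A linear model with group as its term was fitted to all probe sets with limma 3.58.1 in R 4.3.3 (lmFit, eBayes, two-sided), with Benjamini-Hochberg adjustment over all of them and a threshold of 0.05. The fit was tested on simulated data. SE is that of the moderated fit, and SD is over cultures. Folds assume log2.

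Members and lists were chosen with earlier results of these data known, and the KRAB and SCAN classes were added after the files were seen. These classes were assigned from general knowledge of the human proteins, not from a search of their sequences. The text names Znf483 and the 12 largest rises and 12 largest falls among called members whose groups did not overlap. It also names all measured members of the 3 function lists and the genes nearest the minimum level. From the co-repressor and other C2H2 lists it names up to 5 called genes with the smallest p. Other names, including the remaining called members, were chosen after their values were seen. Protein sequences were not used here. Same-numbered cultures did not deviate together (correlations of deviations 0.045, -0.101 and -0.02), so numbers were not treated as pairs. Alternatives were quantile normalization, trended robust moderation, no moderation, a filter on dim probe sets, a replicate block, each array left out, other minimum levels and the mean over a gene's probe sets.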

Additional observations from a re-analysis of the deposited data

How the results depend on the processing

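Of the 46 called members, 21 (13 higher and 8 lower) passed under all 11 alternatives to the fit, 25 lost their call in at least 1, and 0 changed sign. Quantile normalization lost 5 calls and gained 1, and trended robust moderation lost 1 and gained 2. The filter on dim probe sets lost 0 and gained 12, which gave 32 higher and 26 lower members. Without moderation 22 calls were lost and 2 gained, which gave 15 higher and 11 lower members, and 6 other C2H2 genes were called higher. The mean over a gene's probe sets gave 32 higher and 24 lower members. A minimum level of 4, or none, gave 29 higher and 20 lower, and a minimum of 6 gave 26 and 18. Of the 24 members of the function lists that did not pass, 6 passed in at least 1 alternative. That count leaves out the other uncalled members named in the text. Leaving out single arrays lost 12 to 16 calls and gained 0 to 3. Members called higher then numbered 16 to 21 and members called lower 14 to 19. Co-repressor genes called lower numbered 2 to 4 and other C2H2 genes called higher 5 to 12. These fits have fewer arrays. With the replicate block, which the labels' numbers do not justify as a pairing, 13 calls were lost and 2 gained. In that fit 2 co-repressor genes were called lower and 9 other C2H2 genes were called higher. Uncalled members near 0 changed sign when single arrays were left out: Znf143 ranged from -0.077 to 0.038 (0.008 and 0.017 in the other fits of changed sign), Znf148 from -0.033 to 0.102, Znf292 from -0.027 to 0.068 (with -0.003 in another), Znf395 from -0.213 to 0.047 and Znf706 from -0.065 to 0.145. The cause was not tested. A restriction to proteins with C2H2 matches was not run, since protein sequences were not used here.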
